A study of Mus musculus with 11 samples.

Results

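The thermogenic genes of brown fat described here are Ucp1, Cidea, Elovl3, Ppargc1a, Cox8b, Cox7a1, Dio2, Ppara, Kcnk3 and Fabp3, 10 of the 12393 mouse genes that the array could name. They were chosen by name, and a probe set was taken for a gene where the platform annotation gave that symbol and no other. All 10 genes were found, with 18 of the 20380 probe sets that carried a single gene symbol, and 15 of the 18 were bright enough to be tested. Each gene was counted by its brightest probe set, and the other probe sets are given beside it.

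The samples were adventitia, the sheath of connective tissue around an artery, cut with a laser from frozen abdominal aorta. All mice were male, 78 weeks old and fed normal chow. The labels give 3 groups on 11 Affymetrix arrays. ATLO (artery tertiary lymphoid organ) adventitia, which holds aggregates of lymphocytes beside atherosclerotic lesions, came from mice of strain B6.129P2-Apoe<tm1Unc>/J, which lack apolipoprotein E (4 arrays). Outside-lesion adventitia came from mice of that same strain, from aorta outside the lesion area by the sample labels (4 arrays). The design text of the series describes this group instead as mice without lesions, and the labels do not settle which holds. Wild-type adventitia came from strain C57BL (3 arrays), and the titles of these arrays also carry the letters PNS, which no label explains. For both Apoe-deficient groups, 200 sections of 10 micrometres were pooled per sample, the aorta had been taken out together with lymph nodes, fat and connective tissue around it, and RNA was amplified by in vitro transcription for 68 h. Wild-type RNA was extracted with another kit and amplified for 24 h, so that genotype and protocol cannot be told apart in any comparison with wild type. Whether arrays of a group stand for different animals is not stated in the labels, so p-values measure only how far these samples spread, and that spread may be technical.

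Brown adipocytes burn fatty acids to make heat. Noradrenaline from sympathetic nerves raises cAMP in the cell, which frees fatty acids from lipid droplets and switches on the thermogenic genes, and uncoupling protein 1 lets protons back through the inner mitochondrial membrane without making ATP. Fat around the mouse aorta is known to hold brown or brown-like adipocytes, mostly along the thoracic aorta, while fat along the abdominal aorta is usually described as closer to white fat.

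Promoter windows are shown for 3 of the genes because they stand for the 3 patterns described below: Ucp1, the defining gene of brown fat, Cox8b, a respiratory subunit that was lower on every ATLO array, and Dio2, for which no difference between the groups passed the test. The windows are from RefSeq (GRCm38.p6, 250 bases before to 50 bases after the start of the gene, printed 5′ to 3′ on the gene's strand), with capitals where a searched motif was found. Ucp1 lies at chr8:83290098-83290397 on the plus strand, Cox8b at chr7:140900397-140900696 on the minus strand and Dio2 at chr12:90738989-90739288 on the minus strand.
Ucp1: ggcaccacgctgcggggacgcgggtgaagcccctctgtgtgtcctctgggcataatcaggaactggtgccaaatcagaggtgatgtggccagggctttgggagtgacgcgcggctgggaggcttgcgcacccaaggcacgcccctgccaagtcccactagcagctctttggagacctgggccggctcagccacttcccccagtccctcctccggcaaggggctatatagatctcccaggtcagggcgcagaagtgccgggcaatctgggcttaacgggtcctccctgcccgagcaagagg
Cox8b: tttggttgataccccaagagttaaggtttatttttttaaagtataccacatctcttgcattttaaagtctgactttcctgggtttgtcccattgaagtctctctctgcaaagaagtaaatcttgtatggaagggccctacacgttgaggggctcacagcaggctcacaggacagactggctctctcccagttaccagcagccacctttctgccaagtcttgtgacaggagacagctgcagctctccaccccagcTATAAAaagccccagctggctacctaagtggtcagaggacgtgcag
Dio2: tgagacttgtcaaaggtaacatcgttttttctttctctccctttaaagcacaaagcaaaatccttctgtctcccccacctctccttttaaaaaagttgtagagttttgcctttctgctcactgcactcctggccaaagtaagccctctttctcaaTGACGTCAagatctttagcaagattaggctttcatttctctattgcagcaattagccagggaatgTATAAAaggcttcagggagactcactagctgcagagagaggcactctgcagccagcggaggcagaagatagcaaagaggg
Promoter windows were found for 7 of the 10 genes (Cox7a1, Cox8b, Dio2, Fabp3, Ppara, Ppargc1a and Ucp1). The cAMP response element TGACGTCA, searched on both strands, was in the Dio2 window, 95 to 88 bases before the start, and in 1.79% of all 32851 windows of the same length. The TATA box TATAAA, searched on the gene's strand, was in the Dio2 window 30 to 25 bases before the start and in the Cox8b window at bases 5 to 10 after it, and in 8.32% of all windows. The direct repeat AGGTCANAGGTCA, a site for nuclear receptors of the Ppar family, was in 0 of the 7 windows and in 0.0396% of all windows, and the estrogen-related receptor element TCAAGGTCA was in 0 of the 7 and in 0.423%. These 2 motifs share the letters AGGTCA. A match, or its absence from these short windows, is a description of the letters only.

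Signals are linear intensities, scaled by the authors so that every array had the same trimmed mean (between 499.933 and 499.958 here), with median signals of 151.5 to 191 per array. Levels of different probe sets cannot be compared, so each gene is compared only with itself across arrays. Apoe, the deleted gene, gave signals of 45.9 to 179.7 on the 8 Apoe-deficient arrays and 11969.4 to 13164.3 on the 3 wild-type arrays, which matches the labels. Fibroblast genes, which mark adventitia, gave summed signals of 24867 to 77486.9 over all arrays (7 of 7 measured), and Adipoq, the adipocyte hormone adiponectin, gave 8152.0 to 39106.7, so genes of fat cells were read in every group. The ratio of 3' to 5' actin probe sets, a sign of RNA integrity that rises as RNA is shortened, was 1.71 to 8.14 in ATLO, 6.22 to 11.99 outside the lesion and 4.19 to 5.41 in wild type. Outside-lesion replicate 2 stood apart from the other 3 arrays of its group in the brown fat genes, as described below, and results that rest on it are given with and without it.

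In ATLO adventitia, 9 of the 10 brown fat genes were lower than outside the lesion in the same genotype, and Dio2 was the exception (limma, Benjamini-Hochberg adjusted p under 0.05 over all probe sets tested). Among all 9055 genes tested, 14.9% were lower and 34.8% differed in either direction. The median change of the 10 genes was -3.53 on the log2 scale, where the median of all genes was 0.11. Against wild type, 8 of 10 were lower, where 14.1% of all genes were lower and 27.7% differed either way, with a median of -2.62 for the 10 genes and -0.05 for all. Outside-lesion and wild-type adventitia differed in 0 of the 10 genes by limma's adjusted p and in 2 (Ppara and Kcnk3) by its unadjusted p, where 3.11% of all genes passed the adjusted threshold. Medians there were 0.41 for the 10 genes and -0.11 for all. The first pair of comparisons share the ATLO arrays, so their agreement in direction is not independent. Ppara and Ppargc1a, dim in ATLO, were bright enough to test because of the other groups, so ATLO could hardly come out higher for them. Their calls are not separate support.

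**Figure D1:**
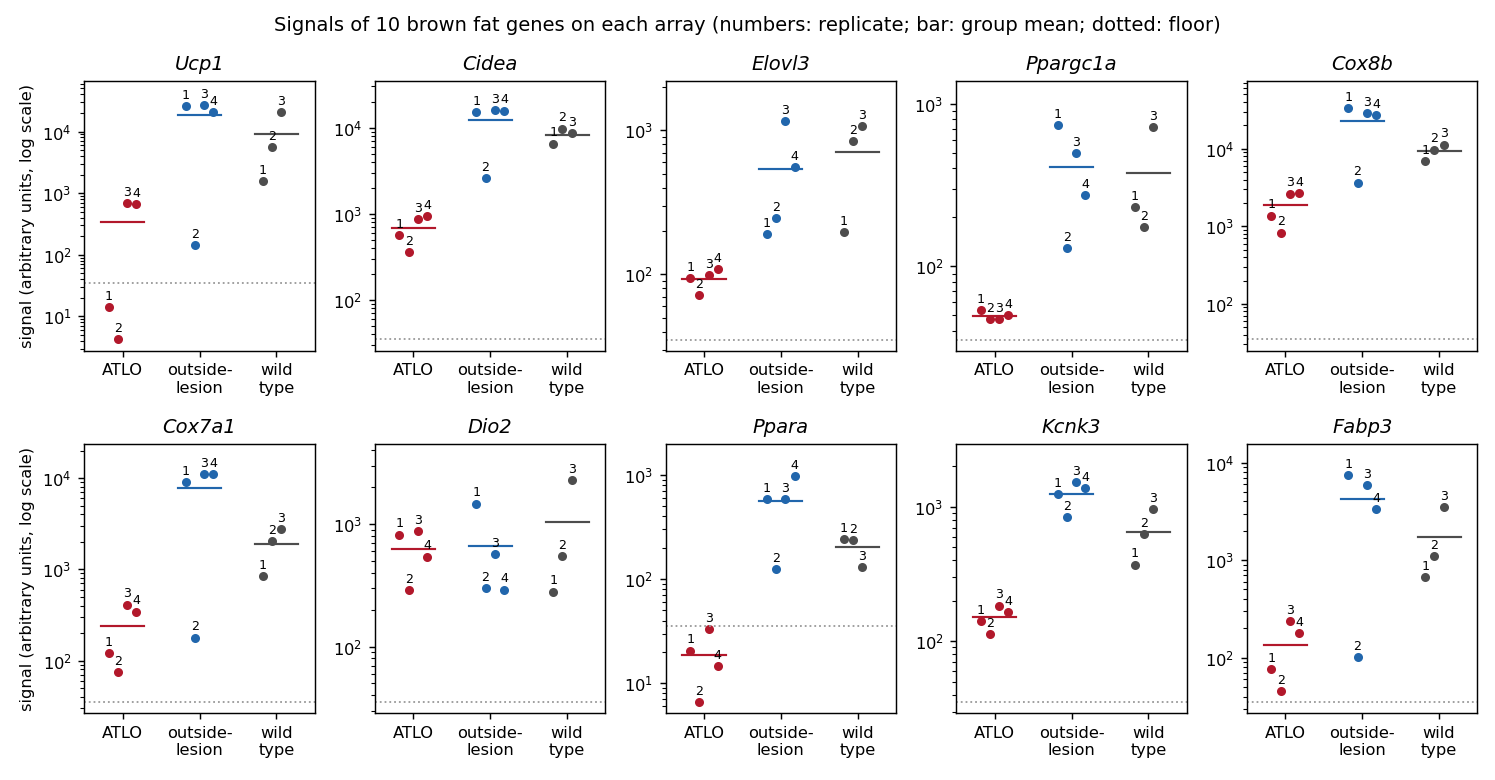
Signals of the 10 brown fat genes on a log axis, 1 panel per gene, with 1 point per array and a bar at the group's mean signal and a dotted line at the floor. Apart from outside-lesion replicate 2, ATLO arrays lie below the other groups' arrays in every panel except Dio2, and the low outside-lesion point for Ucp1, Cox7a1 and Fabp3 is replicate 2, which falls inside the ATLO range.

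Ucp1 encodes the uncoupling protein itself. Its signals in ATLO were 14.2, 4.3, 694.9 and 660.7 (replicates 1 to 4). Outside the lesion they were 26124.7, 143.4, 26623.9 and 20512.9, and in wild type 1573.0, 5513.0 and 20357.4. Thus 3 of the 4 outside-lesion arrays and the highest wild-type array lay far above all 4 ATLO arrays, and outside-lesion replicate 2 lay among the ATLO arrays, so those 2 groups overlap. ATLO was lower than outside-lesion by 43.6-fold (log2 change -5.45 ± 1.58, standard error, limma adjusted p 0.0177) and lower than wild type by 36.4-fold (-5.18 ± 1.70, adjusted p 0.0382), with no overlap against wild type. ATLO replicates 1 and 2 lay below the floor of 35.1, to which signals were raised before taking log2, so both folds are understated. The call against outside-lesion was lost when ATLO replicate 1 or 2 or outside-lesion replicate 1 or 3 was left out (adjusted p 0.0564, 0.0606, 0.0547 and 0.0536), and without outside-lesion replicate 2 the change was -7.29 with an adjusted p of 0.000320. Against wild type the call was lost without ATLO replicate 1 or 2 or wild-type replicate 2 or 3 (adjusted p 0.0816 to 0.145). In bulk tissue, fewer brown adipocytes and less RNA of these genes per cell cannot be told apart.

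Cidea, a protein of the lipid droplet surface that is a standard marker of brown adipocytes, separated the groups more cleanly. Its signals were 572.0, 360.1, 874.5 and 947.4 in ATLO, and 15071.9, 2589.6, 15941.9 and 15744.9 outside the lesion. Wild type gave 6512.7, 9703.8 and 8534.3. Every ATLO array was below every other array, and outside-lesion replicate 2 lay between ATLO and wild type. Cidea fell 15.5-fold against outside-lesion (-3.95 ± 0.50, adjusted p 7.95e-05) and 12.7-fold against wild type (-3.66 ± 0.54, adjusted p 0.000512).

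Ppargc1a encodes PGC-1alpha, the coactivator that drives mitochondrial biogenesis and the thermogenic response to cold. Its brightest probe set read 53.6, 47.1, 47.0 and 49.8 in ATLO, 740.6, 128.9, 497.0 and 273.2 outside the lesion and 230.6, 173.8 and 714.4 in wild type. The ATLO arrays were tightly grouped just above the floor and lay below all others. With ATLO this dim, the gene was tested because of its brighter arrays in the other groups, so ATLO could hardly come out higher. It was 6.84-fold lower than outside the lesion (-2.77 ± 0.50, adjusted p 0.000962) and 6.20-fold lower than in wild type (-2.63 ± 0.54, adjusted p 0.00371). Of its 5 probe sets 4 were tested, and the other 3 tested were also lower, by -2.76, -2.23 and -2.35 against outside-lesion and by -1.65, -1.73 and -1.58 against wild type, all past the threshold. Their signals lay at or below the floor on 3, 1 and 2 of the ATLO arrays in that order, so these changes are understated.

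Ppara is a nuclear receptor that turns on genes of fatty acid oxidation. All 4 ATLO signals, 20.6, 6.6, 32.9 and 14.7, lay below the floor. Outside the lesion it read 582.8, 124.0, 587.0 and 967.9, and in wild type 241.6, 236.3 and 129.2. ATLO was thus the lowest group without overlap, and the folds are bounds set by the floor. The gene was tested only because of its brighter arrays in the other groups, so ATLO could only come out lower. Ppara was at least 12.8-fold lower than outside the lesion (adjusted p 0.000105) and at least 5.55-fold lower than in wild type (adjusted p 0.00453). The size of both bounds follows the floor chosen: the log2 change against outside-lesion was -4.62 with the floor at the 10th percentile and -2.78 at the 30th, and against wild type -3.41 and -1.57, all past the threshold.

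Cox8b and Cox7a1 are subunits of cytochrome c oxidase in forms restricted to brown fat, heart and skeletal muscle. Cox8b read 1377.1, 827.8, 2639.4 and 2695.6 in ATLO, 33037.7, 3658.1, 28426.7 and 27089.9 outside the lesion and 6949.9, 9701.3 and 11304.0 in wild type. ATLO lay below every other array, although outside-lesion replicate 2 came close to the highest ATLO array. Cox8b was 10.3-fold lower than outside the lesion (-3.37 ± 0.60, adjusted p 0.000794) and 5.41-fold lower than in wild type (-2.44 ± 0.64, adjusted p 0.0138). The latter call was lost without wild-type replicate 3 (adjusted p 0.0532). Cox7a1 read 119.5, 75.3, 409.2 and 343.2 in ATLO, 9036.0, 178.5, 11083.2 and 11142.0 outside the lesion and 849.0, 2055.3 and 2738.6 in wild type. As for Ucp1, outside-lesion replicate 2 fell inside the ATLO range while its 3 group mates lay above all wild-type arrays. Cox7a1 was 19.9-fold lower in ATLO than outside the lesion (-4.32 ± 1.09, adjusted p 0.00853). Against wild type its change of -3.16 ± 1.18 missed the threshold (adjusted p 0.0632), although the groups did not overlap. That comparison passed without outside-lesion replicate 2 (limma adjusted p 0.00124), which enters it only through the shared estimate of spread. It also passed when only those 2 groups were fitted (0.00380), with a replicate block (0.0203) or with weighted arrays (0.0280). In every other setting and leave-one-out fit it missed the threshold, with an adjusted p of up to 0.175.

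Elovl3, an elongase of very long chain fatty acids that is induced in brown fat by cold, read 94.1, 71.7, 99.2 and 108.5 in ATLO. Outside the lesion it read 189.9, 246.4, 1151.8 and 555.7, and in wild type 197.4, 839.4 and 1068.9. ATLO was lowest without overlap, and the other groups spread widely over the same range. Elovl3 was 4.51-fold lower than outside the lesion (-2.17 ± 0.56, adjusted p 0.00961) and 6.08-fold lower than in wild type (-2.60 ± 0.61, adjusted p 0.00716).

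Fabp3, the heart-type fatty acid binding protein that carries fatty acids inside brown adipocytes and muscle cells, read 76.3, 45.1, 236.1 and 178.6 in ATLO. It read 7447.5, 102.3, 5828.7 and 3347.0 outside the lesion and 674.9, 1092.7 and 3462.9 in wild type. Outside-lesion replicate 2 again lay among the ATLO arrays. Fabp3 was 17.9-fold lower in ATLO than outside the lesion (-4.16 ± 1.09, adjusted p 0.0105) and 12.5-fold lower than in wild type (-3.64 ± 1.18, adjusted p 0.0360). The wild-type call was lost without ATLO replicate 1 or 2 or wild-type replicate 2 or 3 (adjusted p 0.0679 to 0.141).

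Kcnk3 encodes the potassium channel TASK-1, a marker of brown adipocytes that is also expressed in other excitable cells. Its bright probe set read 141.1, 113.7, 183.9 and 164.2 in ATLO, 1250.7, 835.6, 1525.2 and 1372.9 outside the lesion and 372.1, 630.0 and 959.8 in wild type. The arrays of each Apoe-deficient group lay close together and apart from the other group, outside-lesion replicate 2 included. Kcnk3 had the smallest standard errors of the 10 genes, with an 8.20-fold lower level in ATLO than outside the lesion (-3.04 ± 0.28, adjusted p 1.59e-05) and a 4.10-fold lower level than in wild type (-2.04 ± 0.30, adjusted p 0.000473). Its 2 other probe sets were too dim to test, with signals of 1.1 to 84.3.

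Dio2, the deiodinase that turns thyroxine into active thyroid hormone inside brown adipocytes, was the exception. Its brightest probe set read 820.2, 288.9, 875.1 and 543.8 in ATLO, 1474.3, 301.9, 567.3 and 292.4 outside the lesion and 281.2, 549.7 and 2299.9 in wild type. All 3 groups overlapped. The change was 0.15 ± 0.62 against outside-lesion (adjusted p 0.877) and -0.29 ± 0.67 against wild type (adjusted p 0.780), and its sign moved with the probe sets and arrays used. The other 2 probe sets gave -0.55 and -0.02 against outside-lesion and -0.74 and -0.87 against wild type, none past the threshold. With these standard errors a change of a few fold in Dio2 would not have been detectable.

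**Figure D2:**
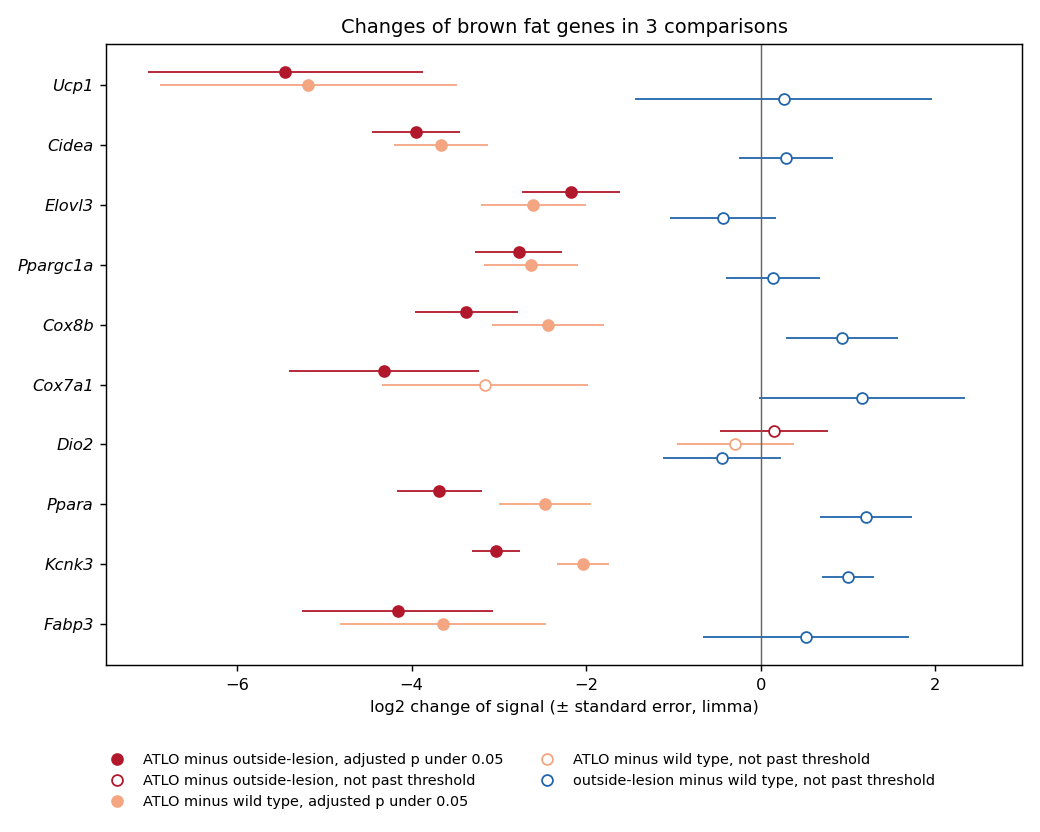
Change of each of the 10 brown fat genes on the log2 scale, with limma standard errors, for ATLO against outside-lesion, ATLO against wild type and outside-lesion against wild type. Filled points are past the adjusted threshold: 9 genes in the first comparison, 8 in the second and 0 in the third, while Dio2 lies near 0 in all 3.

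Without overlap between arrays, 6 of the 10 genes were lower in ATLO than outside the lesion (Cidea, Elovl3, Ppargc1a, Cox8b, Ppara and Kcnk3), where 14.1% of all genes were, and 9 of 10 were lower than in wild type, where 21.9% were. Both counts include Ppara and Ppargc1a, which were tested because of their brighter arrays in the other groups. Within ATLO, replicates 3 and 4 were both above replicates 1 and 2 in 7 of the 10 genes. In wild type, replicate 1 was lowest in 8 and replicate 3 highest in 8. How many of all genes took these orders was not counted, so they cannot be called particular to the brown fat genes. Ucp1 varied the most: its SD of log2 signals was 2.47 in ATLO, 3.71 outside the lesion and 1.85 in wild type, where the median gene had 0.28, 0.29 and 0.22. Outside the lesion Ucp1 had the largest SD of all 9055 genes, Cox7a1 (2.93) ranked 3 and Fabp3 (2.88) ranked 4.

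Marker lists of other cell types moved with the same comparison. All 9 measured genes of T and B cells were higher in ATLO than outside the lesion, with summed signals of 9223.4 to 22712.4 against 934.2 to 1907.7, and 6 of 7 macrophage genes were higher (31270.4 to 50192.3 against 11937 to 20088.8). All 9 measured genes of adipocytes in general were lower (36138 to 96837.3 against 137588 to 223741, with 85326.6 to 101384 in wild type). Endothelial genes were lower in 4 of 6 (1844.5 to 2958.7 against 3594.7 to 5743.1), and fibroblast genes were higher in 4 of 7, with changes of 2.75 for Lum and 1.97 for Col1a1. Smooth muscle genes were lower in 1 of 5. Of the 6 sympathetic nerve genes limma called 0, and 0 had an unadjusted p under 0.05. Skeletal muscle, which also expresses Cox8b, Cox7a1 and Fabp3, had summed marker signals of 670.6 to 2608.7 in ATLO, 1150.9 to 1718.5 outside the lesion and 1590.9 to 2104.3 in wild type, with 1 of 7 tested genes (Myl1) lower in ATLO than outside the lesion. The heart muscle markers summed to 369.6 to 563.9, 700.6 to 1679.4 and 979.9 to 2411.3 in that order, Actc1 was lower in ATLO and Myl7, an atrial myosin, was below the floor on all arrays. The part of cell mixture and of the actin ratio in the results for the brown fat genes was not tested.

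Relative to genes of adipocytes in general, most of the 10 genes were still lower in ATLO. Each array was shifted to the same mean log2 signal of 9 adipocyte genes (Adipoq, Lpl, Fabp4, Pparg, Cebpa, Lipe, Pnpla2, Cidec and Slc2a4), and the fit was repeated. This mean was 12.05, 10.88, 11.70 and 11.73 in ATLO, 13.33, 13.37, 13.17 and 13.06 outside the lesion and 12.44, 12.41 and 12.60 in wild type. After the shift 8 of the 10 genes were lower in ATLO than outside the lesion, Dio2 was higher (1.80 ± 0.48, adjusted p 0.00115) and Elovl3 did not pass (-0.53 ± 0.50, adjusted p 0.314). Because the shift raises nearly every gene, 0.375% of all genes were lower and 91.2% higher, so the rise of Dio2 is that of the table at large, while the 8 genes that fell went against it. So many called genes make the adjustment slight: Ppargc1a had an unadjusted limma p of 0.0252 and an adjusted p of 0.0282. The spread was also estimated anew after the shift. Adjusted p-values and counts of the shifted fits, here and against wild type, therefore cannot be compared with those of the main fit. The largest falls were those of Ucp1 (-3.80 ± 1.16, adjusted p 0.00363), Cox7a1 (-2.67 ± 0.83, adjusted p 0.00420), Fabp3 (-2.52 ± 0.82, adjusted p 0.00621) and Cidea (-2.31 ± 0.42, adjusted p 2.31e-05). Ppara (-2.04), Cox8b (-1.73), Kcnk3 (-1.39) and Ppargc1a (-1.13) made up the rest. The list of other brown adipocyte genes described below did not share this fall as a whole. Of its 16 tested genes 5 were lower and 4 higher after the shift, with a median of -0.14. Against wild type 4 were lower and 2 higher, with a median of -0.23. Of 11 targets of Ppara 3 were lower and 3 higher than outside the lesion, and of 12 other oxidase subunits 0 were lower and 5 higher. The call of Ppargc1a was lost without ATLO replicate 1 or outside-lesion replicate 1 or 3 (adjusted p 0.0759, 0.135 and 0.0915). Without ATLO replicate 2, 5 genes were lower and the calls of Ucp1, Cox7a1 and Fabp3 were lost (adjusted p 0.0763, 0.0647 and 0.0768). In that fit 88.9% of all genes were called in either direction.

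Against wild type on the same footing, 9 of 10 genes were lower in ATLO, where 0.806% of all genes were lower and 48.2% higher, and Dio2 did not pass (0.60 ± 0.51, adjusted p 0.331). Cidea fell by 2.77 (adjusted p 4.28e-05) and Ucp1 fell by 4.29 (adjusted p 0.00776) on the log2 scale. The count of 9 dropped to 4 without ATLO replicate 1, to 5 without ATLO replicate 2 and to 5 called, of which 4 lower, without wild-type replicate 3. In these fits 61.4%, 43.9% and 31.3% of all genes were called in either direction. Between outside-lesion and wild type 0 genes passed by limma's adjusted p and 2 (Elovl3 and Dio2) by its unadjusted p, where 48.8% of all genes were lower and 0.121% higher.

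**Figure D3:**
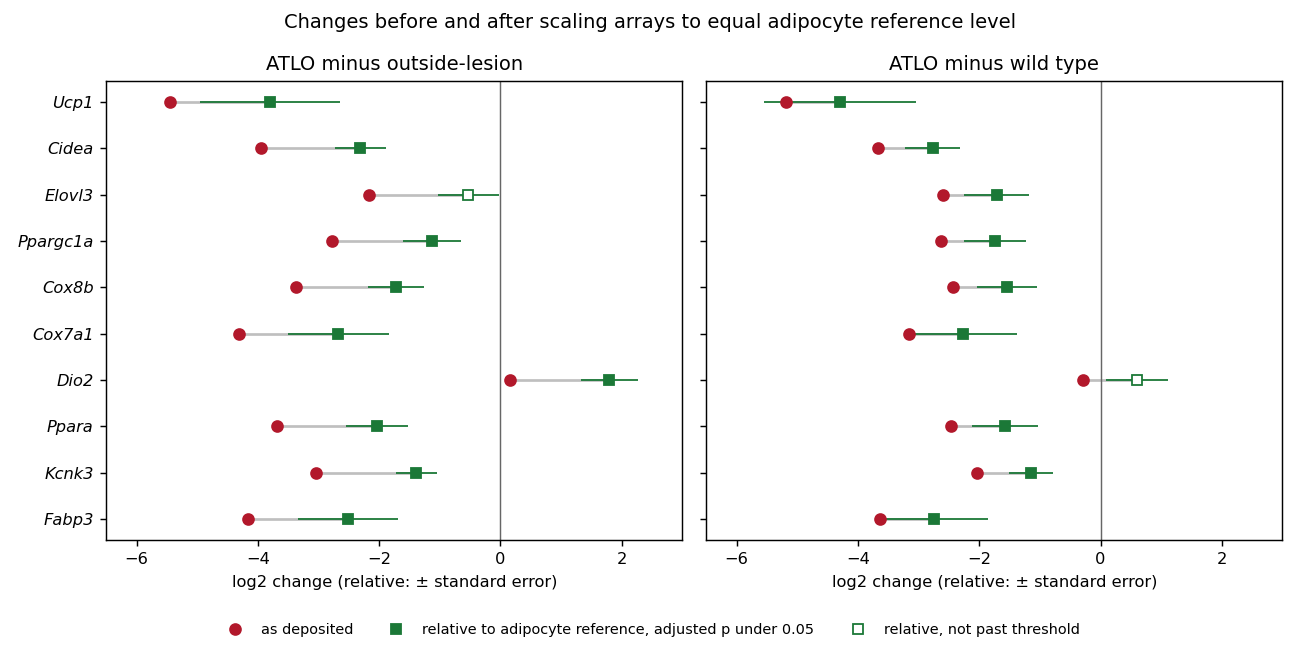
Change of the 10 brown fat genes on the log2 scale in ATLO against outside-lesion (left) and against wild-type adventitia (right), as scaled by the authors and after arrays were set to equal adipocyte signal. Limma standard errors are drawn for the values after the shift only. In each panel the shift moves every gene by a like amount to the right. After it, 8 genes in the left panel remain below 0 and past the threshold, Elovl3 is not past it and Dio2 is above 0. In the right panel 9 genes remain below 0 and past the threshold.

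Outside-lesion replicate 2 had very low signals of Ucp1, Cox7a1 and Fabp3, lower signals of most of the other brown fat genes than its group mates, and adipocyte signal like theirs. It was the lowest of its group for 8 of the 10 genes, Elovl3 and Dio2 excepted, and lay above the highest ATLO array for 6 (Cidea, Elovl3, Ppargc1a, Cox8b, Ppara and Kcnk3). Against the median of its 3 group mates its log2 signal of Ucp1 was lower by -7.51, the largest drop of all 9055 genes, followed by Cox7a1 (-5.96, rank 2) and Fabp3 (-5.83, rank 3). Cox8b (-2.96), Cidea (-2.60), Ppara (-2.24), Ppargc1a (-1.95) and Elovl3 (-1.17) were also more than 1 unit below, and Dio2 (-0.91) and Kcnk3 (-0.72) less so. The median over the 10 genes was -2.42, where it was 0.007 over all genes, and 465 of all 9055 genes were below -1. Adipocyte genes did not share the drop: their median was 0.27 with 8 of 9 above 0, and Adipoq read 39106.7, 35535.2, 29539.3 and 29505.6 in replicates 1 to 4. Lep and Retn, hormones typical of white fat, read 637.7 and 22537.9 in replicate 2, the highest of the group (131.5 to 352.9 and 12759.9 to 15876.0 in the others). Of the 10 tested genes selective for white or beige fat, 7 were above 0 in this array, with a median of 0.45, and Tnfrsf9 (-0.92), Nnat (-0.82) and Hoxc8 (-0.13) were below. Markers of smooth muscle were higher in it (median 1.68), and those of sympathetic nerve lower (median -1.63, 5 of 6 below -1). Low nerve signal was not particular to this array. The summed nerve markers were 391.2, 623.3, 1879.6 and 10335.2 in replicates 1 to 4, lowest in replicate 1. Any relation of nerve signal to the brown fat genes was not tested. Replicate 2 is 1 array, so its contrast with the others has no replicate.

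**Figure D4:**
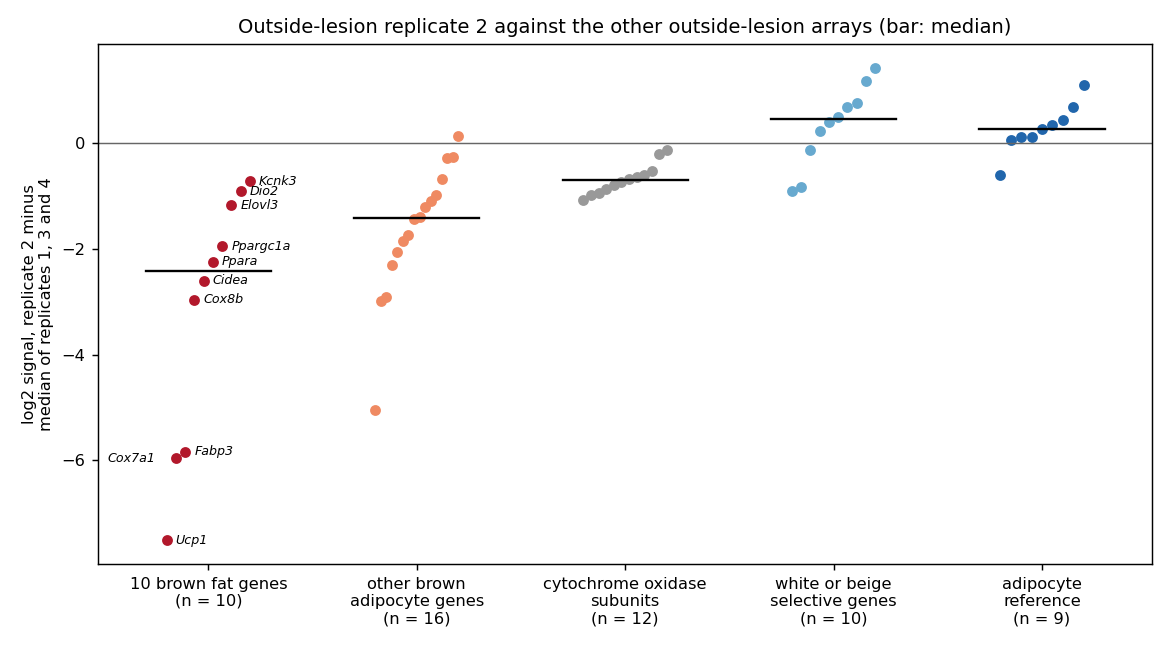
Log2 signal of outside-lesion replicate 2 minus the median of the other 3 outside-lesion arrays, for the brown fat genes and other gene lists, with 1 point per gene and a bar at each list's median. Ucp1, Cox7a1 and Fabp3 lie lowest, while the medians of adipocyte genes (0.27) and of genes selective for white or beige fat (0.45) lie above 0.

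Outside-lesion replicate 2 was singled out by its low signals of these same genes, so leaving it out raises most outside-lesion means by that choice. The values without it, against ATLO and against wild type, describe this dependence and are not separate support. Leaving this array out kept the 9 calls against outside-lesion, where 33.6% of all genes were called, and made the changes larger. Changes then were -7.29 for Ucp1, -5.78 for Cox7a1, -5.58 for Fabp3, -4.60 for Cidea, -4.28 for Ppara, -4.12 for Cox8b, -3.24 for Ppargc1a, -3.22 for Kcnk3 and -2.42 for Elovl3. The highest adjusted p among them was 0.00847, for Elovl3. The comparison of outside-lesion with wild type depended on it as well. Without the array 4 genes were higher outside the lesion than in wild type, Cox7a1 (2.62, adjusted p 0.0228), Ppara (1.83, adjusted p 0.00790), Cox8b (1.69, adjusted p 0.0246) and Kcnk3 (1.18, adjusted p 0.0379), and 5.85% of all genes were called in either direction. With all 4 arrays these changes were 1.16, 1.21, 0.94 and 0.9998, with adjusted p of 0.581, 0.197, 0.398 and 0.0821, and those of Ucp1 (0.26 ± 1.70), Fabp3 (0.52 ± 1.18), Cidea (0.29 ± 0.54), Ppargc1a (0.14 ± 0.54) and Elovl3 (-0.43 ± 0.61) were smaller than their standard errors. With all arrays, 0 of the 10 genes passed limma's adjusted threshold between outside-lesion and wild type. Ppara (standard error 0.53) and Kcnk3 (standard error 0.30) had an unadjusted limma p of 0.0388 and 0.00497.

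Cox8b and Cox7a1 each have a counterpart that is expressed in most tissues, Cox8a and Cox7a2. The difference of log2 signals within an array was used to ask whether the restricted form changed more than its counterpart, and its zero has no meaning because probe sets differ. For Cox8b minus Cox8a the differences were -1.87, -2.19, -0.31 and -0.62 in ATLO, 1.02, -1.47, 0.96 and 0.91 outside the lesion and -0.25, 0.20 and 0.25 in wild type. For Cox7a1 minus Cox7a2 they were -6.77, -6.94, -4.65 and -4.83 in ATLO, -1.90, -6.72, -1.37 and -1.36 outside the lesion and -4.26, -2.88 and -2.48 in wild type. In both pairs ATLO replicates 1 and 2 were low and outside-lesion replicate 2 fell among the ATLO arrays. The mean difference between ATLO and outside-lesion was -1.60 for the first pair and -2.96 for the second (exact permutation p 0.0857 for each, adjusted p 0.171 over 6 tests, two-sided). Against wild type it was -1.31 (exact permutation p 0.114, adjusted p 0.171) and -2.59 (exact permutation p 0.0571, adjusted p 0.171). Between outside-lesion and wild type it was 0.29 and 0.37 (exact permutation, adjusted p 0.857 for each). By the exact permutation test, 0 of the 6 tests passed and 0 had an unadjusted p under 0.05, where the smallest p that 4 arrays against 4 or 3 allow is 0.0286. After adjustment over 6 tests, none could pass unless most of them reached that smallest p. The tests therefore cannot decide whether a restricted form changed more than its counterpart. Without outside-lesion replicate 2 the values against it were -2.21 and -4.25, with an exact permutation adjusted p of 0.0857 for each.

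**Figure D5:**
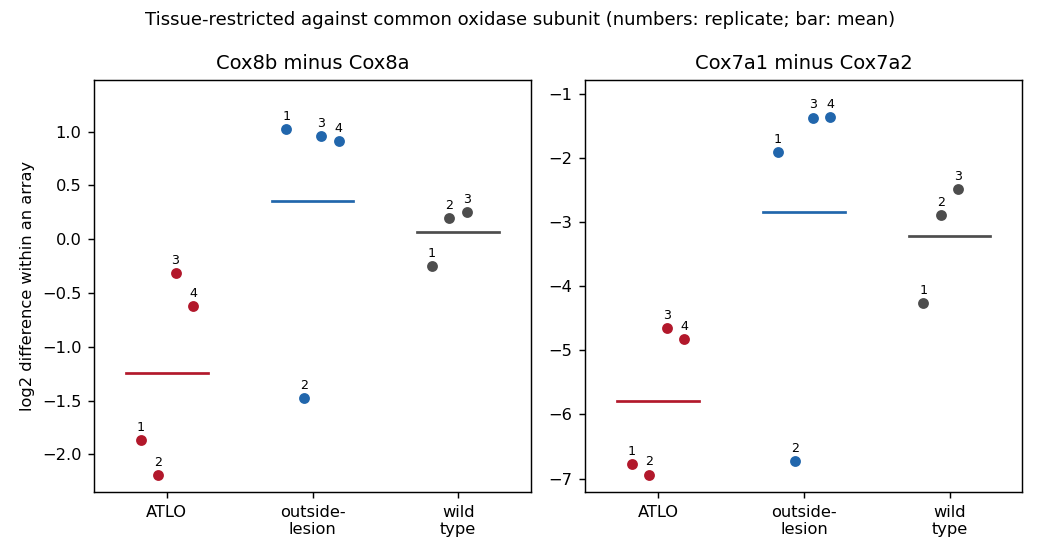
Within-array difference of log2 signals, Cox8b minus Cox8a and Cox7a1 minus Cox7a2, with 1 point per array and a bar at each group's mean. Outside-lesion replicate 2 lies with the ATLO arrays in both pairs, 3 of the 4 outside-lesion arrays lie highest, and wild-type arrays lie between.

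Genes known to act with these 10 were counted from lists. For all list counts below, 14.9% of all genes tested were lower in ATLO than outside the lesion and 34.8% differed either way. Against wild type these shares were 14.1% and 27.7%. Of the regulators, 21 of 30 were tested; 8 were lower in ATLO than outside the lesion and 1 higher, with a median of -0.59. The largest falls were those of Pparg, the master regulator of adipocytes (-2.14 ± 0.28, adjusted p 0.000106), and Ppargc1b, a relative of Ppargc1a (-2.12 ± 0.33, adjusted p 0.000292), and the rise was that of Irf4 (1.69 ± 0.40, adjusted p 0.00559), a transcription factor of thermogenic adipocytes that lymphocytes also express. Against wild type 6 were lower, led by Ebf2, which marks brown fat precursors (-1.96 ± 0.19, adjusted p 5.58e-05), and Klb, the co-receptor of Fgf21 (-1.42 ± 0.20, adjusted p 0.000342). Between outside-lesion and wild type, limma called 0 of the 21, and 8 had an unadjusted p under 0.05.

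Of other genes typical of brown adipocytes, 16 of 30 were tested; 12 were lower in ATLO than outside the lesion, with a median of -1.78, and Gatm, an enzyme of creatine synthesis, was higher (1.33 ± 0.27, adjusted p 0.00202). Slc27a2, a fatty acid transporter and acyl-CoA synthetase, read 6.2, 7.0, 27.8 and 39.7 in ATLO, 1984.2, 46.3, 1528.9 and 1516.0 outside the lesion and 207.6, 360.1 and 1552.0 in wild type. Pdk4, the kinase that shuts pyruvate out of oxidation, read 407.6, 307.5, 474.6 and 600.6 in ATLO, 8130.4, 992.4, 7899.8 and 7560.6 outside the lesion and 3421.4, 3806.9 and 5386.6 in wild type. Both show the low outside-lesion replicate 2 seen for Ucp1. The log2 changes of Slc27a2 and Pdk4 were -4.23 and -3.43 against outside-lesion (adjusted p 0.00476 and 0.000332) and -3.75 and -3.25 against wild type (adjusted p 0.0185 and 0.00161), where 8 of the 16 were lower. Of 10 tested genes selective for white or beige fat, 1 was lower in ATLO than outside the lesion (Retn, -1.27 ± 0.28, adjusted p 0.00403) and 1 higher (Tnfrsf9, 2.02 ± 0.43, adjusted p 0.00307), a receptor that activated T cells also express. The median of that list was -0.56, and its share called was below the 34.8% of all genes. Against wild type 3 of these 10 were lower, among them Hoxc9 (-1.44) and Tcf21 (-1.27), and Tnfrsf9 was higher (2.26).

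Among the subunits of cytochrome oxidase other than Cox8b and Cox7a1, 8 of 12 were lower in ATLO than outside the lesion. Their median was -1.38, with the largest falls in Cox8a (-1.77 ± 0.18, limma adjusted p 2.43e-05) and Cox6c (-1.50 ± 0.22, adjusted p 0.000231). Against wild type 2 of the 12 were lower (Cox4i2, -1.18, and Cox8a, -1.12), close to the share of 14.1% among all genes. Of 11 tested targets of Ppara, 8 were lower in ATLO than outside the lesion, with a median of -1.40, led by Ehhadh, an enzyme of peroxisomal fatty acid oxidation (-2.36 ± 0.26, adjusted p 3.4e-05), and Acadl, an acyl-CoA dehydrogenase (-2.33 ± 0.27, adjusted p 4.63e-05). Cpt1a, the gate of fatty acid entry into mitochondria in liver and many other tissues, was higher (0.60 ± 0.15, adjusted p 0.00884), and it was the 1 gene of these lists that was lower outside the lesion than in wild type (-0.83, adjusted p 0.0254). Against wild type 8 of the 11 targets were lower, with Ehhadh (-2.08) and Acadm (-1.80) in front.

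Relatives of the 10 genes were measured in part: 2 of 4 other uncoupling proteins were tested, 3 of 6 elongases, 3 of 6 fatty acid binding proteins, 2 of 6 genes for thyroid hormone handling and 2 of 9 potassium channels of the Kcnk family. Of the other uncoupling proteins, Ucp3 was lower in ATLO, by -1.70 ± 0.34 against outside-lesion (adjusted p 0.00182) and by -1.67 ± 0.36 against wild type (adjusted p 0.00504). Among the elongases, Elovl6 was lower in both comparisons (-2.06 and -2.23, adjusted p 0.000437 and 0.000915), Elovl5 was lower in both (-0.62 and -0.78), and Elovl1 was higher than outside the lesion (0.64, adjusted p 0.00507). Among the fatty acid binding proteins, Fabp4, the adipocyte form, was lower than outside the lesion (-1.14 ± 0.36, adjusted p 0.0278). Of genes for thyroid hormone handling, Thrsp, a lipogenic gene that responds to thyroid hormone, and Thra, a thyroid hormone receptor, were lower in ATLO than outside the lesion (-1.66 and -0.54, adjusted p 0.000193 and 0.0413) and than in wild type (-1.14 and -0.75). Among the relatives of Kcnk3, Kcnk1 went the other way and was higher in ATLO (2.01 ± 0.32 against outside-lesion, adjusted p 0.000337, and 1.68 ± 0.34 against wild type, adjusted p 0.00345).

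Across the 11 arrays the genes outside these 10 whose log2 signals were most like those of Ucp1, by Pearson's r, were G0s2 (0.96), an inhibitor of the lipase that opens lipid droplets, Trib3 (0.95), a pseudokinase, Pank1 (0.94), the first enzyme of coenzyme A synthesis, Slc25a42 (0.94), a mitochondrial carrier of coenzyme A, and Ndufa13 (0.94), a subunit of respiratory complex I. G0s2 read 563.5, 717.6, 2141.1 and 1528 in ATLO, 4363.6, 1168, 10556.9 and 7096.3 outside the lesion and 1822.4, 2888 and 5094.7 in wild type, with the same low outside-lesion replicate 2. By the same measure Fabp3 (0.98), Cox7a1 (0.97), Cox8b (0.95) and Cidea (0.92) were closest to Ucp1 among the 10 genes, Ppargc1a (0.86), Kcnk3 (0.83), Ppara (0.81) and Elovl3 (0.78) followed, and Dio2 was far from it (0.38). These values describe likeness over arrays that share groups, and the difference between groups enters all of them.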

How the data were processed

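RNA of 11 samples of mouse aortic adventitia was read on Affymetrix arrays. The authors deposited 1 linear intensity per probe set and array, scaled to a common trimmed mean per array (2% trimmed at each end, from the values), and made with GCOS 1.4 per the submitters' processing notes. How probes were summarised is not given in these sources. Intensities carry no counts, so the number of arrays limits the precision. The table held 22690 probe sets, and 64 controls were left out. Names came from the platform annotation: 20380 probe sets had 1 symbol, 691 several and 1555 none.

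Signals under 35.1, the 20th percentile over the table, were set to that floor before log2, which understates folds of dim genes. Probe sets above the 40th percentile of their array on at least 3 arrays were tested (14988, for 9055 genes). Group means were estimated by limma 3.58.1 (R 4.3.3) from all 11 arrays, using a variance prior that follows intensity. Benjamini-Hochberg adjustment ran over every probe set tested, at a threshold of 0.05. Each gene was represented by its probe set with the highest mean. The fit was tested on simulated data. Errors are standard errors. Isoform differences were compared with exact two-sided permutation tests (35 splits of 4 against 3 arrays, 70 of 4 against 4), in Python 3.11.15.

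The 10 genes, the lists and the tests were chosen with earlier results of these data known. All 10 genes were named, with the 5 genes most like Ucp1, the 2 called genes of each list that rose most, the 2 that fell most, and Apoe. Marker genes, and Lep, were named from the marker and gene lists after their values were seen. Arrays of different groups share replicate numbers, and the main fit did not treat these as pairs. Correlations of same-numbered deviations were 0.142, 0.0749, 0.0397 and 0.153 for ATLO with outside-lesion arrays. They were 0.005, 0.273 and 0.188 for ATLO with wild type, and -0.178, 0.121 and 0.0211 for outside-lesion with wild type. Differently numbered arrays were not compared, so these values cannot decide whether samples were paired. Alternatives were other scalings, floors, filters, sample sets, weights, a replicate block, averaged probe sets, a 2-fold threshold, other adipocyte references and leaving out each array.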

Additional observations from a re-analysis of the deposited data

Results flagged for a closer look

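Each of the 10 genes was tested in the 2 groups of 4 arrays for a single array far from the others. This made 19 sets, because Ppara in ATLO lay wholly below the floor. Of these sets 4 were flagged, each time outside-lesion replicate 2 at the low end. Chance alone flags about 1 in 20 such sets, and the flags come from the same array, so they are not independent of each other. The gap of that array to its nearest neighbour took up 0.969 of the group's whole range of log2 signals for Cidea (signal 2589.6), 0.950 for Ucp1 (143.4), 0.949 for Cox7a1 (178.5) and 0.910 for Cox8b (3658.1).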

How the results depend on the processing

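The count of brown fat genes called in ATLO against outside-lesion was 9 of 10 in each alternative that left all arrays in, with 2 exceptions. Where it was 9 without the adipocyte shift, 16.6% (2-fold threshold) to 37.6% (array weights) of all genes were called. Without a filter on dim probe sets it was 5, and against wild type that setting also gave 5. With the stricter filter Ppara was not tested, and 8 of the 9 genes left were called, and 7 of 9 against wild type. Of all genes 40.5% and 32.4% were called in that setting. The calls lost without a filter against outside-lesion were Ucp1, Elovl3, Cox7a1 and Fabp3 (limma adjusted p 0.0507 to 0.0834). There 23.1% of all genes were called. Against wild type the calls of Ucp1, Cox8b and Fabp3 were lost, and 18.3% of all genes were called. Without a filter, more probe sets enter both the fit and the adjustment. Outside-lesion against wild type gave 1 with equal array medians (Kcnk3) and 2 with array weights (Ppara and Kcnk3), where 3.82% and 10.0% of all genes were called. Relative to adipocyte genes, that comparison gave 1 with the median of the reference genes, where 18.8% of all genes were called. With a replicate block, the counts were 9, 9 and 0 in the order ATLO against outside-lesion, ATLO against wild type and outside-lesion against wild type. Of all genes 34.0%, 26.1% and 1.21% were called there. The last comparison gave 3 relative to adipocyte genes, where 45.9% of all genes were called. The block also called Cox7a1 in ATLO against wild type (limma adjusted p 0.0203) and put the change of Ucp1 outside the lesion against wild type at -0.36. Quantile normalization put that change at -0.0207 and that of Cidea at -0.0051, and averaging its probe sets put Dio2 in ATLO against outside-lesion at -0.14. The cause was not tested.

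Leaving out each array in turn, counts ranged from 8 to 9 in ATLO against outside-lesion, 5 (without wild-type replicate 3) to 9 in ATLO against wild type, and 0 to 4 (without outside-lesion replicate 2) in outside-lesion against wild type. The share of all genes called in these fits ranged from 29.1% to 34.4%, 19.0% to 29.5% and 0.1% to 5.85% in that order. Relative to adipocyte genes the counts ranged from 6 to 9, 4 to 9 and 0 to 2, and the shares from 88.9% to 93.2%, 31.3% to 61.4% and 13.7% to 70.9%. Changes that crossed 0 were those of Dio2 (-0.13 to 0.65 against outside-lesion, -0.96 to 0.56 against wild type, -0.0425 to 1.39 against wild type relative to adipocyte genes), and, outside the lesion against wild type, of Ucp1 (-0.66 to 2.11), Elovl3 (-1.19 to 0.0314), Ppargc1a (-0.27 to 0.75), Dio2 (-1.11 to 0.41), Fabp3 (-0.12 to 1.94) and Cox7a1 minus Cox7a2 (-0.15 to 1.67). Against wild type the calls of Ucp1 and Fabp3 were also lost without an intensity trend (adjusted p 0.0555 and 0.0525). Signals near the floor limit Ucp1, Ppara and Ppargc1a in ATLO.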
